A study of Mus musculus with 6 samples.

Results

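The genes described here are Cited2, a feedback inhibitor of the hypoxia response, and 40 further genes of oxygen sensing, of glycolysis and of the transcriptional response to low oxygen. They were taken by name from the gene count tables, and all 41 were found among 48397 gene names and passed the filter on low counts, which left 23924 genes for testing. They form 3 classes, with 9 HIF regulators, 22 genes of glycolysis and of glucose and lactate transport, and 10 other targets of HIF. Pancreatic islets, a mixture of endocrine and other cells, were isolated from wild-type C57B6 mice and cultured for 24 h with 500 ng/mL of recombinant mouse prolactin or with DMSO, the control. Each condition had 3 libraries of polyadenylated RNA, which the titles number as replicates. Neither animals nor cultures are named for them, so the p-values below measure the spread between these libraries, which may be technical.

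HIF is a transcription factor made of an oxygen-sensitive alpha subunit (HIF1A, or EPAS1, also called HIF2A) and the stable partner ARNT. In oxygen, the prolyl hydroxylases EGLN1, EGLN2 and EGLN3 mark the alpha subunit, VHL binds the marked protein and sends it for degradation, and HIF1AN blocks its contact with the coactivators p300 and CBP. CITED2 binds the same coactivators and competes with HIF for them, and its own gene is induced by HIF in other cells. Beta cells depend on glycolysis feeding mitochondria, and they are known for keeping lactate dehydrogenase A and the monocarboxylate transporter SLC16A1 low.

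The libraries held 230833584 to 264885071 assigned reads in prolactin and 264466143 to 530296257 in control. Values are CPM, counts scaled to a common library total, given for replicates 1, 2 and 3 in that order. Cish, a known prolactin target that served as a check of the labels, stood at 36.5, 42.0 and 40.8 CPM in prolactin and at 8.27, 7.54 and 8.68 CPM in control. A gene was called when its adjusted p in edgeR's quasi-likelihood test, corrected over all tested genes by the Benjamini-Hochberg method, lay under 0.05. By that rule 0.652% of all tested genes were higher and 0.104% lower in prolactin (156 and 25 genes). Those numbers moved with the libraries, to 39 and 1 without prolactin replicate 2, 39 and 2 without prolactin replicate 3, 86 and 8 without prolactin replicate 1, and 342 and 234 without control replicate 3. Without control replicate 1 they were 121 and 15, and without control replicate 2 they were 63 and 10. Prolactin replicates 2 and 3 were closer to each other than other pairs, with an SD over genes of 0.0568 for their log2 ratio against 0.163 to 0.243. Their counts differed by more than sampling noise, which does not show that they came from separate islets, and they were treated as separate replicates. A list of 8 beta-cell markers, all detected, summed to 118606 to 123982 CPM in prolactin and 116582 to 142999 CPM in control.

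The core of the DNA site bound by HIF is ACGTG or GCGTG. Promoters of Cited2 and of 5 of the members that differed most between control replicates 1 and 2 are shown here. The genes were chosen after their values were seen. No change or call below rests on these sequences, and their part in the spread between control libraries was not tested. Each runs 5′ to 3′ on the gene's strand from 250 bases before to 50 after the start, is from RefSeq on GRCm38.p6, and has each match on either strand in capitals, so that CACGT and CACGC are matches read on the other strand. For Ldha the first of its listed starts is shown. The intervals are chr10:17722978-17723277 (+) for Cited2, chr12:54203825-54204124 (-) for Egln3, chr11:120948817-120949116 (+) for Slc16a3, chr7:110627407-110627706 (+) for Adm, chr7:138909457-138909756 (-) for Bnip3 and chr7:46845554-46845853 (+) for Ldha.
Cited2: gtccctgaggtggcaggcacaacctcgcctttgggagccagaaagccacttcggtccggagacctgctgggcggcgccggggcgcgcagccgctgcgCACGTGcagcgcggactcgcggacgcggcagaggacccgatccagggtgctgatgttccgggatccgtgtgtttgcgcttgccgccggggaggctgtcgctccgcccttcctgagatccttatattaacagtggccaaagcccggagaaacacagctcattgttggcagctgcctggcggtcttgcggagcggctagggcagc
Egln3: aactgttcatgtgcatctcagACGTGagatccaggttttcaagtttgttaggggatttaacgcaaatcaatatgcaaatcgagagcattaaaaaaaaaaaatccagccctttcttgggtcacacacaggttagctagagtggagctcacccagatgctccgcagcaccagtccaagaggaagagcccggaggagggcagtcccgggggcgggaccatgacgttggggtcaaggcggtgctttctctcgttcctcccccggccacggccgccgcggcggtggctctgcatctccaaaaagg
Slc16a3: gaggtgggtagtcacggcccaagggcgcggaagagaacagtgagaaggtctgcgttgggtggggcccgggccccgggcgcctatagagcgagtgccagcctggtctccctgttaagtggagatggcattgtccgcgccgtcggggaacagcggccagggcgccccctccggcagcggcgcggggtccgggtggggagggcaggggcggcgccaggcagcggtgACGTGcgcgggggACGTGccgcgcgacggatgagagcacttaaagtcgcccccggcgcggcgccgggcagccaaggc
Adm: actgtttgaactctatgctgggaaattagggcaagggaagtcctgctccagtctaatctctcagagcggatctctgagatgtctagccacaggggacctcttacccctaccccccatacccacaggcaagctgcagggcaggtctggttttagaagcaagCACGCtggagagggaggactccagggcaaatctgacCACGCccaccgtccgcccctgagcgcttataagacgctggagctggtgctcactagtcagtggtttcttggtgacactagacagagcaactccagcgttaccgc
Bnip3: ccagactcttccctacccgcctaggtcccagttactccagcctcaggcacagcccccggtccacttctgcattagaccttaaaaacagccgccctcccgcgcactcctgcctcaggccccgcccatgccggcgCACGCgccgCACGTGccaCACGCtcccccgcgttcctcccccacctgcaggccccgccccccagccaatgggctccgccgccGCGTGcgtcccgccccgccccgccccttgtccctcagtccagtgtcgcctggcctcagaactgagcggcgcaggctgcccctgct
Ldha: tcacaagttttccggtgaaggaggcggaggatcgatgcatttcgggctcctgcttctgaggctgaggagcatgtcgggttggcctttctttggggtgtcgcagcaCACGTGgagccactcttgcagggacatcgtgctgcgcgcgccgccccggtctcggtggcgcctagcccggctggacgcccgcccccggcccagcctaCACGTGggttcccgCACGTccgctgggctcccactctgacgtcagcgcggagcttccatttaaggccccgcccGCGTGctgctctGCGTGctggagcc

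Cited2 held 1 palindromic CACGTG, which is a match on both strands and also the E-box bound by other factors, beginning 153 bases before its start. Egln3 held a single ACGTG, 229 bases before the start, and Slc16a3 a pair within 27 bases of it. In Bnip3 several matches began between 117 and 99 bases before the start, and another at 35. Those of Ldha were spread from 145 bases before the start to 37 after it, while Adm held GCGTG only, on the other strand. The table covered 37 of the 41 members with 51 promoters, of which 41 (80.4%) held ACGTG or GCGTG on either strand, against 43.8% of all 32851 promoters of that length. Ndrg1, Bnip3l, Slc2a3 and Epas1 were not matched. For ACGTG alone the shares were 56.9% and 19.6%, and for CACGTG, which overlaps it, 15.7% and 7.15%. The letters TTCNNNGAA, a core recognised by STAT factors, were found in 2 member promoters (3.92%) and in 8.3% of all promoters, and not in this window of Cited2. Members were listed as genes of HIF, hypoxia and glycolysis, so their higher share of HIF sites was built into the choice and is a description. Some genes have several starts among the 51 promoters, and by gene 32 of the 37 members held ACGTG or GCGTG. These are letter matches and not measured binding.

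Cited2 was the single member called under prolactin. It stood at 44.4, 44.8 and 46.4 CPM in prolactin and at 28.7, 29.7 and 28.0 CPM in control. All prolactin libraries lay above all control libraries, and the gap was far wider than the spread within either condition (45.2 ± 1.08 and 28.8 ± 0.872 CPM, SD, n = 3 each). On the log2 scale it rose by 0.65 with an SE of 0.0502, or 1.57-fold (edgeR adjusted p = 0.000628). Over all 41 members edgeR called 1 higher and 0 lower, limma-voom the same numbers, and DESeq2 2 higher and 4 lower, where DESeq2 called 4.1% of its genes higher and 1.6% lower. Unadjusted p-values under 0.05 went with a higher level in 3 members and a lower one in 11, beside 7.78% and 6.68% of all tested genes. Cited2 passed in each of the 15 alternative analyses, with log2 changes between 0.63 and 0.67 and adjusted p from 1.4e-18 to 0.0106, the highest with prolactin replicates 2 and 3 summed. Cited2 lies on chromosome 10 (17723228 to 17725673, plus strand, mm10), and its exons overlap no other gene of the annotation. Among its relatives, which share the coactivator-binding region, Cited1 averaged 1.59 CPM in prolactin and 1.42 CPM in control, and Cited4 averaged 6.13 and 6.58 CPM, and neither passed. In these bulk samples a change in RNA per cell and a change in the share of a cell type cannot be told apart. A list of 10 stromal markers summed to 963 to 1174 CPM in prolactin and 509 to 739 CPM in control, with 2 of 10 called higher and none at 0. A list of 5 delta-cell and PP-cell markers summed to 5654 to 7016 CPM in prolactin and 8015 to 8479 CPM in control, with 1 of 5 called lower and none at 0. Of 6 alpha-cell markers, which summed to 34923 to 36278 CPM in prolactin and 23309 to 37278 CPM in control, 1 was called higher. The part of these cell types in the values of Cited2 and of the other members was not tested.

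**Figure D1:**
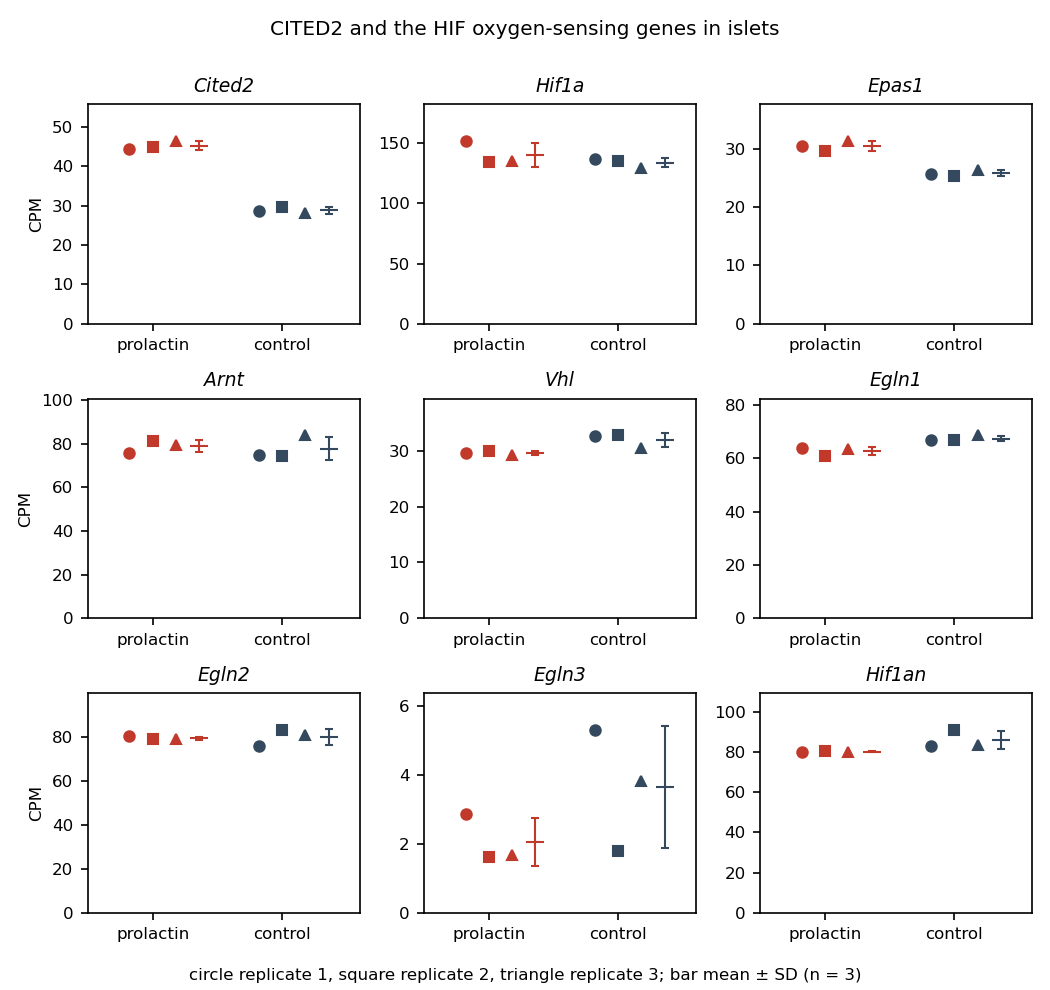
CPM of Cited2 and 8 HIF regulators in each library, prolactin left of control, with the mean and SD (n = 3) beside the points. Cited2 is between 44.4 and 46.4 CPM in prolactin and between 28.0 and 29.7 CPM in control, while the Egln3 points are spread widely within each condition.

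Of the HIF alpha subunits, Hif1a did not pass, at 152, 134 and 135 CPM in prolactin and 137, 135 and 129 CPM in control (log2 change 0.07, SE 0.0632, edgeR adjusted p = 0.668). Epas1, the subunit prominent in endothelial cells, stood at 30.5, 29.7 and 31.4 CPM in prolactin and at 25.6, 25.4 and 26.3 CPM in control. The groups did not overlap, yet its log2 change of 0.24 (SE 0.0501) missed the threshold (edgeR adjusted p = 0.0724). It passed in 4 of 15 alternatives, without control replicate 3 (adjusted p = 0.0428), with a filter of 1 CPM in 3 libraries (0.0492), with the replicate number as a block (0.0412) and in DESeq2 (0.0108). A list of 8 endothelial markers summed to 334 to 344 CPM in prolactin and 286 to 330 CPM in control, with 1 of 8 called higher and none at 0, and its part in the Epas1 values was not tested. Per kilobase of exon, Hif1a made up 80.5% ± 1.14 of the summed level of both subunits in prolactin and 82.3% ± 0.683 in control, with overlapping libraries. Arnt, the partner of both, did not pass (78.9 ± 2.71 CPM in prolactin, 77.7 ± 5.31 CPM in control, edgeR adjusted p = 0.908).

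Of Vhl and the HIF hydroxylase genes, which turn HIF off in oxygen, none passed. Vhl, the substrate receptor of the ubiquitin ligase, stood at 29.7, 30.1 and 29.3 CPM in prolactin and at 32.6, 32.8 and 30.6 CPM in control (log2 change -0.11, SE 0.0511, edgeR adjusted p = 0.377). Egln1, the main oxygen-sensing prolyl hydroxylase, had 63.8, 61.0 and 63.7 CPM in prolactin and 66.8, 66.8 and 68.7 CPM in control (log2 change -0.10, adjusted p = 0.375). Hif1an, the asparaginyl hydroxylase, had 79.9, 80.5 and 80.2 CPM in prolactin and 83.2, 91.1 and 83.3 CPM in control (log2 change -0.10, adjusted p = 0.447). In these 3 genes every prolactin library lay below every control library, which held for 10.4% of all tested genes. Egln2 overlapped between conditions and had a log2 change of -0.01.

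Egln3, a hydroxylase gene strongly induced by HIF, was low and varied between libraries of the same condition. It stood at 2.87, 1.61 and 1.68 CPM in prolactin and at 5.32, 1.79 and 3.83 CPM in control, and the groups overlapped. Its log2 change of -0.83 had an SE of 0.363 (edgeR adjusted p = 0.339). It was -0.45 with control replicate 1 left out and -1.16 with control replicate 2 left out. Per kilobase, Egln2 gave 60.3% ± 0.634 of the summed level of the 3 hydroxylases in prolactin and 58.1% ± 1.92 in control, Egln1 38.0% ± 0.512 and 39.1% ± 0.527, and Egln3 1.64% ± 0.531 and 2.80% ± 1.40. Over the 9 HIF regulators the median log2 change was -0.01 (-0.046 without control replicate 1), against 0.00 over all tested genes, with 1 higher, 0 lower and 8 not passing.

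Glycolysis and its transporters gave no call in either direction by edgeR's test, and most of the 22 genes were slightly lower in prolactin. Negative log2 changes were seen for 18 of 22 (81.8%), against 49.9% of all tested genes, and the median log2 change was -0.13. Before adjustment, 8 were lower and 0 higher at p under 0.05, where 6.68% of all tested genes were lower and 7.78% higher. DESeq2 called 3 lower and 0 higher, beside 1.6% and 4.1% of its genes, and limma-voom 0. In 7 of 22 (31.8%) every prolactin library lay below every control library, beside 10.4% of all tested genes and 14.9% of those averaging 5 CPM or more, and 0 of 22 lay above, beside 11.3%. Leaving out control replicate 1 brought the median to -0.047 and leaving out control replicate 2 to -0.21, and it lay between -0.17 and -0.11 without any other single library. Per library, the median over the 22 genes of log2 CPM minus the gene's mean over the 6 libraries overlapped between conditions. It was -0.0038, -0.11 and -0.091 in prolactin replicates 1, 2 and 3, and 0.21, -0.059 and 0.043 in control. The choice of these genes was made with results known, so their shares are a description.

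**Figure D2:**
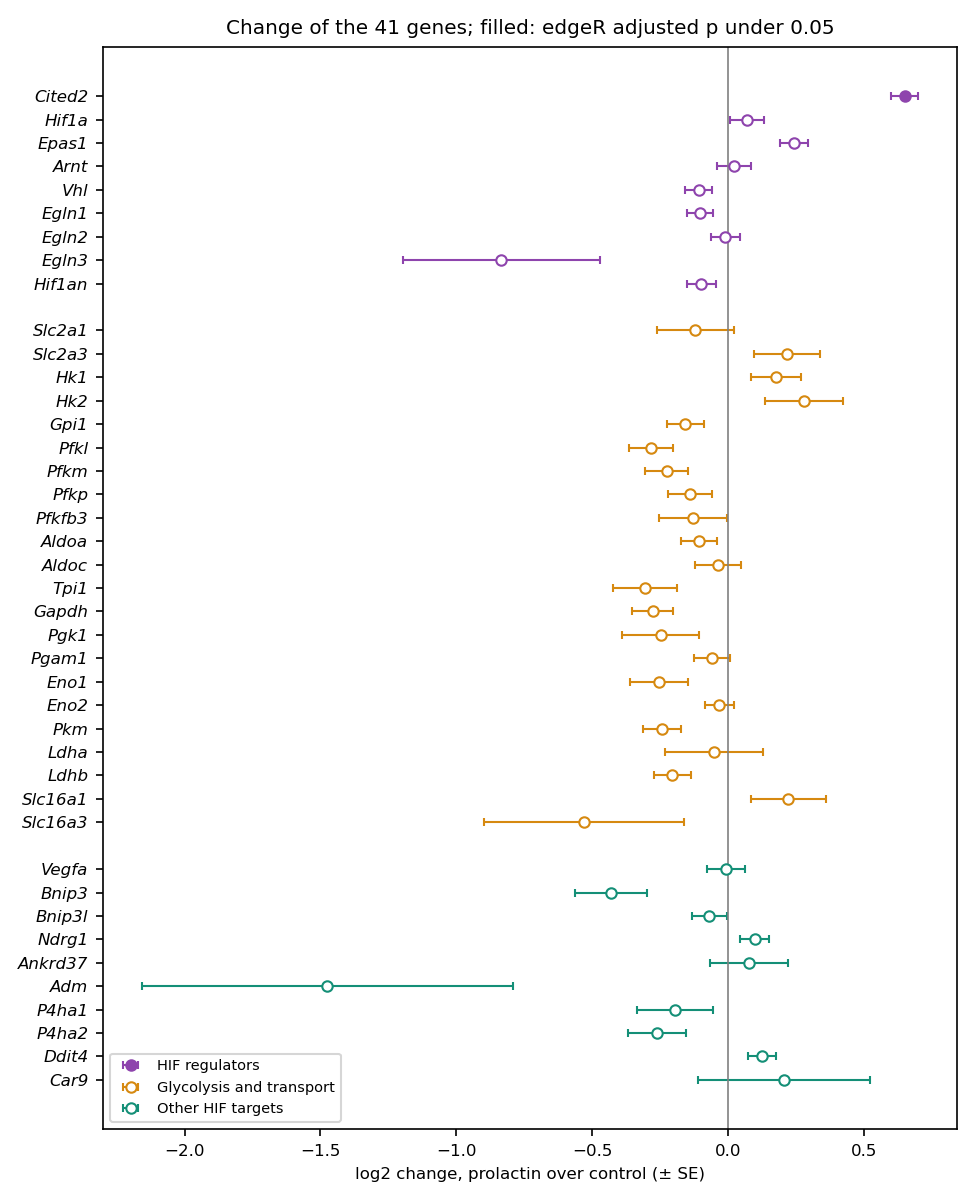
Log2 change of each of the 41 genes, prolactin over control, with its SE, grouped by class. The genes of glycolysis and transport are listed in pathway order. Cited2, at 0.65, is the single filled point, and 18 of the 22 genes of glycolysis and transport lie left of 0.

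At the entry of the pathway, 3 of the 4 genes had positive log2 changes and none passed. Slc2a1, the ubiquitous glucose transporter, had 39.5, 32.4 and 30.8 CPM in prolactin and 43.9, 29.4 and 38.2 CPM in control (log2 change -0.12, edgeR adjusted p = 0.751). Slc2a3, the high-affinity transporter of neurons, had 17.0, 19.0 and 19.3 CPM in prolactin and 18.7, 15.8 and 12.9 CPM in control (log2 change 0.22, adjusted p = 0.461). Both overlapped between conditions. Hk1 and Hk2, the hexokinases of most tissues, averaged 38.4 ± 0.688 and 10.4 ± 0.982 CPM in prolactin and 34.0 ± 4.82 and 8.52 ± 1.88 CPM in control, and neither passed (log2 changes 0.18 and 0.28). With control replicate 1 left out, Slc2a3, Hk1 and Hk2 stood at log2 changes of 0.36, 0.29 and 0.48. With control replicate 3 left out, Slc2a3 and Hk1 stood at 0.09 and 0.087, and with control replicate 2 left out, Hk2 stood at 0.18. Slc2a2, the main glucose transporter of mouse beta cells, made up 77.9% ± 4.92 of the summed level of Slc2a1, Slc2a2 and Slc2a3 per kilobase in prolactin and 80.9% ± 4.35 in control, with overlap. The share of Slc2a3 in that sum was 4.79%, 4.31% and 4.42% in prolactin and 4.03%, 3.06% and 2.67% in control, without overlap. No other share within a gene family computed here separated the conditions. Among all tested genes, 11.3% had every prolactin library above every control library.

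The genes of the middle steps had negative log2 changes, and none passed. Pfkl, the liver-type phosphofructokinase, had 90.9, 86.5 and 86.7 CPM in prolactin and 115, 93.1 and 114 CPM in control (log2 change -0.28, SE 0.0811, edgeR adjusted p = 0.163). Pfkm, the muscle-type enzyme, had 56.9, 67.7 and 66.7 CPM in prolactin and 68.9, 78.6 and 76.1 CPM in control (log2 change -0.23, SE 0.0794, adjusted p = 0.247). Neither pair of groups overlapped, and Pfkl passed without control replicate 2 (log2 change -0.38, adjusted p = 0.0486) and in DESeq2 (adjusted p = 0.0294). The third form, Pfkp, overlapped (75.9 ± 4.18 CPM in prolactin, 83.6 ± 9.06 CPM in control). Per kilobase, Pfkl gave 40.3% ± 1.99 of the summed phosphofructokinase level in prolactin and 41.6% ± 3.17 in control. Pfkm gave 43.4% ± 3.23 and 43.2% ± 4.26, and Pfkp 16.3% ± 1.24 and 15.2% ± 1.26. These shares rest on exon lengths of 4395, 2957 and 9395 bases for Pfkl, Pfkm and Pfkp. Those lengths cover all annotated exons of a gene, so the shares are not proportions of transcript molecules. Pfkfb3, which makes the allosteric activator of these enzymes, stood at 44.7, 40.1 and 40.7 CPM in prolactin and at 56.3, 38.7 and 42.2 CPM in control, with overlap.

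Among the enzymes that split and oxidise the sugar, Aldoa was abundant and overlapped (537 ± 13.9 CPM in prolactin, 578 ± 34.0 CPM in control), as did Gpi1, the isomerase before it (208 ± 4.02 and 232 ± 18.7 CPM), and the brain-type aldolase gene Aldoc (22.8 ± 2.66 and 23.3 ± 0.676 CPM). Tpi1, triosephosphate isomerase, had 168, 157 and 157 CPM in prolactin and 243, 177 and 175 CPM in control. Its log2 change of -0.31 (SE 0.118, edgeR adjusted p = 0.285) became -0.13 without control replicate 1. Gapdh, the dehydrogenase of the pathway, had 44.8, 39.8 and 41.5 CPM in prolactin and 56.3, 47.1 and 49.5 CPM in control (log2 change -0.28, SE 0.0765, adjusted p = 0.152). In both genes prolactin lay below control in all libraries. Gapdh passed with the replicate number as a block (adjusted p = 0.0274) and in DESeq2 (adjusted p = 0.0299).

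Gapdh is a common normalising gene, and its level here was low for its place in the pathway. In RPKM, which is CPM per kilobase of exon, it stood at 10.2 ± 0.624 in prolactin and 12.3 ± 1.16 in control, below its neighbours Tpi1 (58.3 ± 2.34 and 72.1 ± 14.1 RPKM) and Pgk1 (82.2 ± 7.63 and 97.6 ± 22.5 RPKM). Gapdh, Tpi1, Pgk1, Pgam1, Eno1, Aldoa, Pkm and Ldha have near-identical pseudogenes or retrogenes in mouse, and the recorded counting command has no option for reads that map to several places. Their absolute levels are therefore uncertain. RPKM also depends on the annotated exon length, which is 4133 bases for Gapdh, 2753 for Tpi1 and 2244 for Pgk1. Exons of 14 of the 41 members also overlap a gene on the opposite strand, among them Gapdh with Iffo1, Tpi1 with Spsb2, Pfkm with Senp1 and Pfkp with Pitrm1, and their reads cannot be assigned to one of the pair without strand.

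The genes of the later enzymes also had negative log2 changes without passing. Eno1, the ubiquitous enolase, had 317, 291 and 299 CPM in prolactin and 429, 319 and 335 CPM in control (log2 change -0.26, SE 0.106, edgeR adjusted p = 0.318). With control replicate 1 left out its log2 change was -0.11, and that of Pgk1 was -0.042, against -0.25 with all libraries. With control replicate 2 left out, Eno1 was at -0.34 and Pgk1 at -0.35. Pkm, pyruvate kinase, had the highest level per kilobase of all members and stood at 1189.6, 1179 and 1189.7 CPM in prolactin and 1500.0, 1381 and 1328 CPM in control. Its log2 change was -0.24 (SE 0.0696, adjusted p = 0.164), and DESeq2 called it (adjusted p = 0.0159). Neither gene overlapped between conditions. Pgk1 and Pgam1 did, at 184 ± 17.1 and 84.8 ± 3.63 CPM in prolactin and 219 ± 50.4 and 88.3 ± 6.68 CPM in control. Eno2, the neuronal enolase that endocrine cells also express, had overlapping groups (40.1 ± 1.30 CPM in prolactin, 41.003 ± 1.52 CPM in control). Per kilobase, Eno1 gave 79.3% ± 1.32 of the summed enolase level in prolactin and 81.4% ± 3.11 in control.

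**Figure D3:**
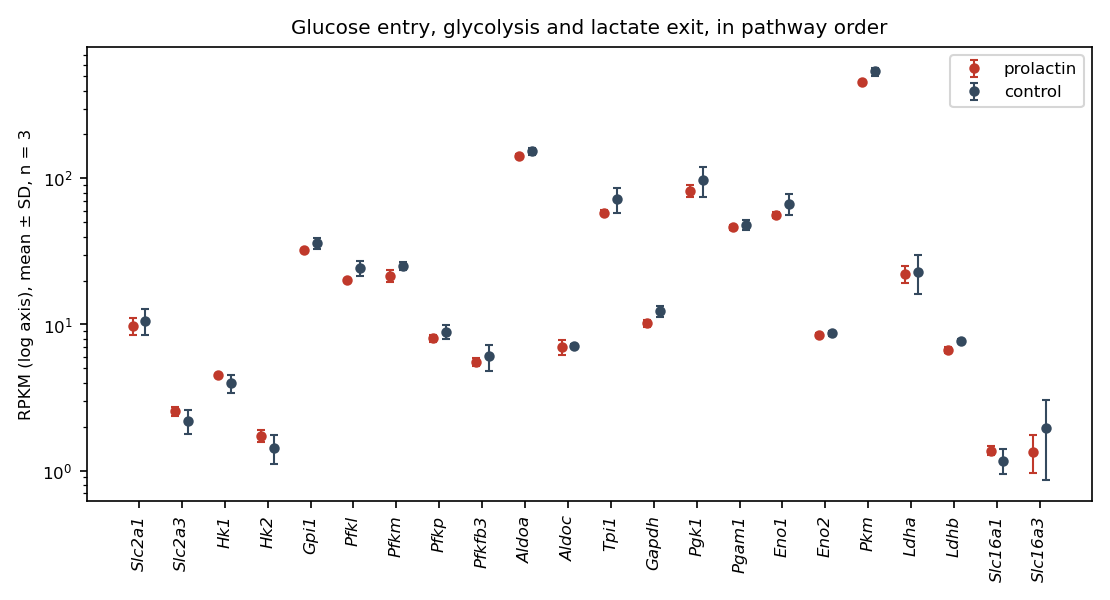
Level of the 22 genes of glycolysis and transport in pathway order, as RPKM on a log axis, mean and SD of 3 libraries, prolactin left of control. Pkm stands highest (456 RPKM in prolactin and 539.8 RPKM in control) and Slc16a1, Slc16a3 and Hk2 lowest, and Gapdh lies below Tpi1 and Pgk1.

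At the lactate end, Ldha and Ldhb encode the 2 subunits of lactate dehydrogenase, and Slc16a1 and Slc16a3 encode transporters that carry lactate across the membrane. Ldha had 84.4, 67.6 and 68.6 CPM in prolactin and 102, 65.1 and 61.1 CPM in control, with overlap (log2 change -0.05, SE 0.180, edgeR adjusted p = 0.923). Its sign depended on single libraries, with a log2 change of 0.22 once control replicate 1 was left out (adjusted p = 0.373) and of 0.0038 once prolactin replicate 2 was. Ldhb was low and steady, at 9.99, 10.7 and 10.96 CPM in prolactin and 12.4, 12.4 and 11.7 CPM in control, with no overlap (log2 change -0.20, SE 0.0668, adjusted p = 0.212). Per kilobase, Ldha gave 76.6% ± 2.96 of the summed level of both subunits in prolactin and 74.1% ± 4.81 in control. Slc16a1 averaged 6.05 ± 0.430 CPM in prolactin and 5.18 ± 0.991 CPM in control (log2 change 0.22, adjusted p = 0.514), or 1.37 ± 0.0971 and 1.17 ± 0.224 RPKM. Slc16a3, the HIF-induced exporter of lactate, had 9.58, 6.17 and 5.77 CPM in prolactin and 16.4, 4.96 and 9.60 CPM in control, with overlap (log2 change -0.53, SE 0.368, adjusted p = 0.561). That value was -0.022 with control replicate 1 left out, -0.86 with control replicate 2 left out and -0.80 with prolactin replicate 1 left out. For Slc16a1 it was 0.07 with control replicate 3 left out.

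Of the 10 other HIF targets none passed edgeR's test. Before adjustment 1 was higher and 2 were lower at p under 0.05, beside 7.78% and 6.68% of all tested genes. DESeq2 called 1 lower, beside 1.6% of its genes, and limma-voom 0. The median log2 change of these 10 was -0.04, and 6 of 10 (60%) were negative, beside 49.9% of all tested genes. Bnip3, a mitophagy receptor gene, had 40.7, 38.2 and 38.4 CPM in prolactin and 66.2, 43.3 and 48.5 CPM in control, with no overlap (log2 change -0.43, SE 0.134, edgeR adjusted p = 0.192). It passed in DESeq2 (adjusted p = 0.0138) and without a filter on low counts (adjusted p = 0.0267). Its log2 change was -0.23 without control replicate 1, and the other end of its range with 1 library left out was -0.555. Its relative Bnip3l overlapped (58.9 ± 0.574 CPM in prolactin, 61.7 ± 5.01 CPM in control).

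Vegfa, the endothelial growth factor by which islet cells maintain their capillaries, overlapped between conditions, at 391.7, 406 and 392.3 CPM in prolactin and 377, 383 and 437 CPM in control (log2 change -0.01, SE 0.0703, edgeR adjusted p = 0.970). Ddit4, a stress-induced inhibitor of mTORC1, had 91.3, 88.3 and 87.0 CPM in prolactin and 81.6, 84.7 and 78.4 CPM in control. Its groups did not overlap, and the log2 change of 0.12 (SE 0.0520) did not pass (adjusted p = 0.320). Adm, which encodes the vasodilator peptide adrenomedullin, was the most variable member on the log2 scale. It stood at 0.678, 0.310 and 0.415 CPM in prolactin and at 2.097, 0.177 and 1.59 CPM in control, so that the control libraries enclosed all prolactin libraries (log2 change -1.48, SE 0.683, adjusted p = 0.368). With control replicate 1 left out the log2 change was -0.92, and the other end of its range with 1 library left out was -1.99.

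The collagen prolyl hydroxylase genes P4ha1 and P4ha2 averaged 65.0 ± 7.08 and 23.0 ± 2.15 CPM in prolactin and 74.5 ± 16.0 and 27.5 ± 4.02 CPM in control, with log2 changes of -0.20 and -0.26. With control replicate 1 left out these were -0.013 and -0.14, and P4ha1 was at -0.32 with control replicate 2 left out. For P4ha2 the other end of the range with 1 library left out was -0.35. Ndrg1, a gene induced by hypoxia and differentiation, stood at 96.6 ± 3.24 CPM in prolactin and 90.3 ± 3.59 CPM in control, and Ankrd37, another induced gene, at 4.09 ± 0.372 and 3.87 ± 0.725 CPM. Car9, the cell-surface carbonic anhydrase used as a hypoxia marker, was at 1.51, 0.800 and 0.944 CPM in prolactin and 1.19, 0.541 and 1.08 CPM in control. None of these 5 separated the conditions.

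The control libraries differed among themselves in HIF targets and glycolysis. Control replicate 1 was the highest of the 3 control libraries in 19 of 22 glycolysis and transport genes (86.4%) and in 7 of 10 other HIF targets (70%), against 2 of 9 HIF regulators (22.2%) and 27.6% of all tested genes. Control replicate 2 was the lowest in 12 of 22 and 6 of 10, against 30.9% of all tested genes. With prolactin, replicate 1 was the highest of its 3 libraries in 15 of 22 and 6 of 10, against 40.4% of all tested genes. These orders were counted after they had been seen, and no test was made of them.

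The ratio of control replicate 1 to control replicate 2 was 11.9 for Adm, 3.31 for Slc16a3, 2.97 for Egln3, 2.19 for Car9, 1.57 for Ldha, 1.53 for Bnip3 and 1.51 for P4ha1. These 7 members were the ones at least 1.5-fold higher in replicate 1, a bound passed by 9.29% of all tested genes and, among genes averaging 5 CPM or more, by 4 of 37 members and 0.638% of all. No member was 1.5-fold lower in replicate 1, against 2.62% of all tested genes. Between prolactin replicates 1 and 2 the ratios of the same genes were smaller, 2.19 for Adm, 1.55 for Slc16a3 and 1.78 for Egln3. Cited2 did not follow this order, with 28.7 CPM in control replicate 1 and 29.7 CPM in control replicate 2, and neither did Vegfa (377 and 383 CPM) or Ddit4 (81.6 and 84.7 CPM). The SD of log2 CPM over the control libraries had a median of 0.19 in the 22 glycolysis and transport genes, 0.24 in the 10 other HIF targets and 0.057 in the 9 HIF regulators, beside 0.15 over all tested genes. Among genes averaging 5 CPM or more the medians were 0.19 in 22, 0.12 in 7 and 0.050 in 8 members of these classes, beside 0.097 over all such genes.

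Other measures differed between these control libraries as well. Control replicate 1 had the largest total (530296257 reads), the lowest sum of the 8 beta-cell markers (116582 CPM, against 142999 CPM in control replicate 2) and the highest sum of 6 alpha-cell markers (37278 CPM, against 28001 CPM). The 10 acinar markers summed to 1390 CPM in control replicate 1, 512 CPM in control replicate 2 and 2728 CPM in control replicate 3. The 13 genes of the mitochondrial genome summed to 28032 CPM, 29973 CPM and 23967 CPM in control replicates 1, 2 and 3. Their part in the order of the HIF targets was not tested.

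**Figure D4:**
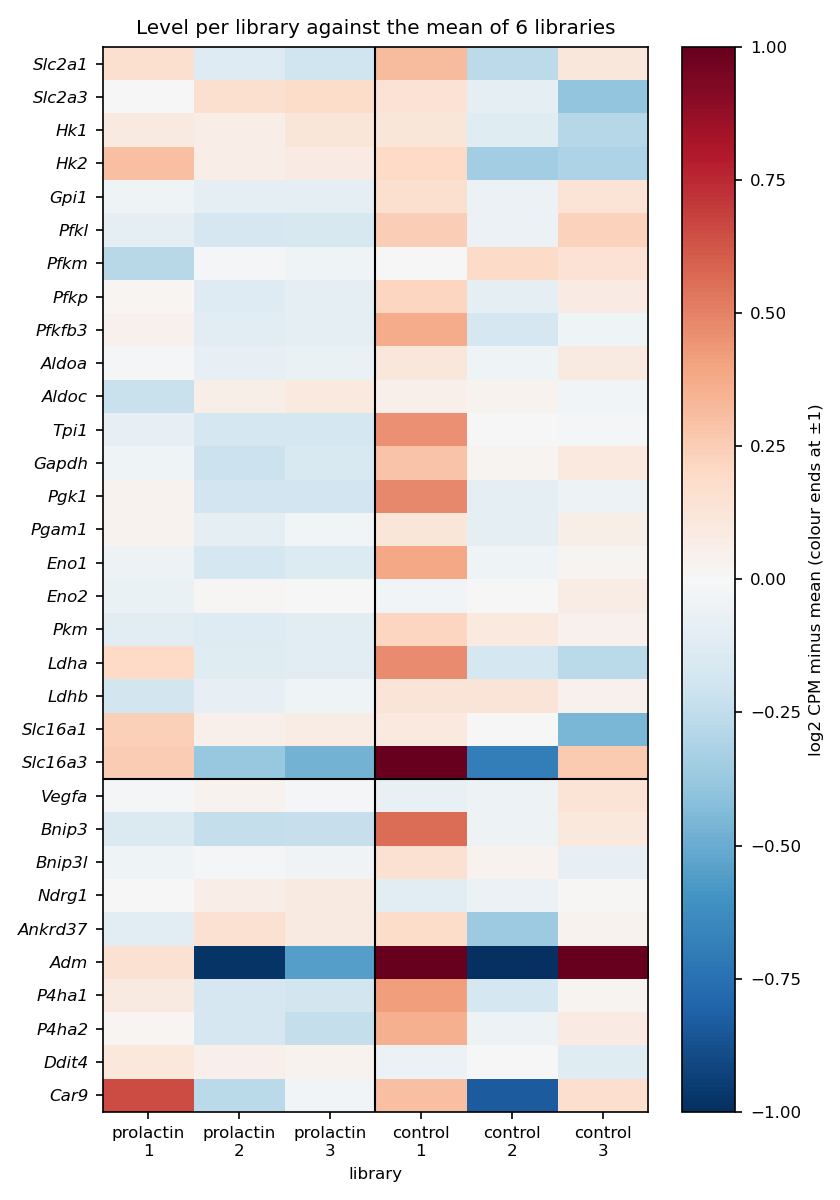
Log2 CPM of each gene in each library minus its mean over the 6 libraries, for the glycolysis and transport genes (above the line) and the other HIF targets (below it), with prolactin libraries left of control libraries. Control replicate 1 is the highest control library in 19 of the 22 upper genes and 7 of the 10 lower ones, and Adm and Slc16a3 reach the end of the colour range in that library.

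Further lists of the same pathways, which do not hold the members, gave 1 call. Of 15 other HIF pathway genes, 0 passed edgeR's test, DESeq2 or limma-voom. Before adjustment 1 was higher and 0 were lower at p under 0.05, beside 7.78% and 6.68% of all tested genes. The smallest p-values there were those of the second ARNT gene Arnt2 (log2 change 0.15, edgeR adjusted p = 0.242) and of Crebbp, which encodes the coactivator CBP (0.16, adjusted p = 0.411). The coactivators that CITED2 binds were therefore not called, with Ep300 at 157 ± 7.59 CPM in prolactin and 150.4 ± 15.8 CPM in control.

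Of 32 other hypoxia-induced genes 0 rose and 1 fell, beside 0.652% and 0.104% of all tested genes, and their median log2 change was -0.04. Before adjustment 3 were higher and 4 lower at p under 0.05, beside 7.78% and 6.68% of all tested genes. DESeq2 called 1 higher and 4 lower, beside 4.1% and 1.6% of its genes, and limma-voom 0 higher and 1 lower. The gene that fell was Pdk1, which encodes an inhibitory kinase of pyruvate dehydrogenase. It stood at 42.0, 43.3 and 43.8 CPM in prolactin and 64.0, 53.5 and 56.8 CPM in control (log2 change -0.43, SE 0.0690, edgeR adjusted p = 0.0319). Its groups did not overlap. It lost the call without prolactin replicate 1, 2 or 3 (adjusted p = 0.116, 0.177 and 0.173) and with prolactin replicates 2 and 3 summed (adjusted p = 0.176), and kept it without any single control library. Edn1, the endothelin precursor gene, was next with 7.53, 6.70 and 6.30 CPM in prolactin and 5.09, 4.08 and 4.56 CPM in control (log2 change 0.58, adjusted p = 0.0535).

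Of 33 other genes of glycolysis and its branches 31 were tested and 0 passed edgeR's test. Negative log2 changes were seen for 23 of 31 (74.2%), beside 49.9% of all tested genes, and the median was -0.085. Before adjustment 3 were higher and 6 lower at p under 0.05, beside 7.78% and 6.68% of all tested genes. DESeq2 called 1 higher and 1 lower, beside 4.1% and 1.6% of its genes, and limma-voom 0. Fbp1, which runs the phosphofructokinase step backwards, stood at 52.9, 53.6 and 52.0 CPM in prolactin and at 43.8, 32.8 and 33.2 CPM in control, with no overlap (log2 change 0.53, SE 0.103, edgeR adjusted p = 0.0592). It passed in 4 of 15 alternatives. Gpd1l, a glycerol phosphate dehydrogenase gene, had a log2 change of -0.22 (adjusted p = 0.165).

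In the authors' deposited table, 2 of the 41 members were higher and 4 lower at an adjusted p under 0.05, beside 4.1% and 1.6% of its genes with an adjusted p. The authors' deposited table lists Cited2 at a log2 fold change of 0.65 (adjusted p = 1.4e-18) and Epas1 at 0.24 (0.0108) as the higher ones. The 4 lower ones in the authors' deposited table were Bnip3 at -0.43 (0.0138), Pkm at -0.24 (0.0159), Pfkl at -0.28 (0.0294) and Gapdh at -0.28 (0.0299). The quasi-likelihood test of edgeR called Cited2 alone of these 6. The DESeq2 run made here gave the same values for these 6 genes and the same numbers of calls over all genes (776 and 303). The deposited values therefore do not add a separate result.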

How the data were processed

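Polyadenylated RNA was sequenced on an Illumina NovaSeq X Plus after NEBNext Ultra II library preparation, as the labels' protocols say. The authors deposited counts of whole reads per gene name, made with featureCounts 2.0.3 on GENCODE vM10 without a strand option, per the file headers. Named in the submitters' processing notes are mm10, SAMtools 1.21, Subread 2.1.0 and DESeq2. Which aligner was used is not given in these sources. Even counts were in surplus (53.9% to 56.3% of the counts from 1 to 20), so both mates of a pair may have been counted. The authors' deposited table holds a mean signal, log2 fold changes, their SE, a test score and p-values, raw and adjusted, per gene.

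With edgeR 4.0.16 in R 4.3.3, counts were filtered (minimum count 10, minimum total 15), TMM-scaled and tested by a quasi-likelihood fit of condition over all genes. CPM use the scaled totals, and RPKM and shares per kilobase divide them by the length of all annotated exons of the gene. The SE is the log2 change over the root of the test statistic. The procedure was tested on simulated data. Alternatives were other scalings and filters, DESeq2 1.42.0, limma-voom (limma 3.58.1), a replicate block, halved counts, summed prolactin replicates 2 and 3, and each library left out. The members and lists were chosen with earlier results of these data known. All members are given. Of the further lists, called genes and the 2 smallest p-values each are named, and others were chosen after their values were seen. Promoters are from RefSeq (GRCm38.p6, the same assembly as mm10). Proteins were not used here.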

Additional observations from a re-analysis of the deposited data

How the results depend on the processing

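Over 15 alternatives and 41 members, 588 of 614 results kept their sign and their side of the threshold, 11 gained a call, 15 changed sign and 0 lost a call. Adm gave no value under the filter of 1 CPM in 3 libraries. Members called higher numbered 2 with that filter, in DESeq2 and with the replicate block, and 1 to 2 with 1 library left out. Members called lower numbered 1 without a filter, 4 in DESeq2, 1 with the replicate block, and 0 to 1 with 1 library left out. Over all genes, 470 were called higher and 127 lower without a filter, 776 and 303 in DESeq2, 464 and 134 with the replicate block, 42 and 2 with prolactin replicates 2 and 3 summed, and 46 lower with the filter of 1 CPM. With 1 library left out, 39 to 342 were higher and 1 to 234 lower. The cause of these differences was not tested. The class medians with 1 library left out were -0.046 to -0.0035 for HIF regulators, -0.21 to -0.047 for glycolysis and transport, and -0.087 to -0.011 for other HIF targets.

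The sign changes were all in uncalled genes. The log2 change of Arnt was -0.0038 and -0.0099 without control replicates 1 and 2, and -0.0011 without prolactin replicate 2. With 1 library left out, the other ends of the ranges were 0.0796 for Arnt, -0.27 for Slc2a1, -0.24 for Pfkfb3, -0.098 for Aldoc, -0.19 for Ldha, 0.20 for Ankrd37 and 0.42 for Car9. Egln2 was at 0.0015 and Vegfa at 0.0025 with upper-quartile scaling. Without control replicate 1, Slc2a1 was at 0.017, Pfkfb3 at 0.049 and Ldha at 0.22. Without control replicate 2, Egln2 was at 0.018, Ankrd37 at -0.064 and Car9 at -0.065. Vegfa was at 0.061 without control replicate 3. Without prolactin replicate 1, Aldoc was at 0.055 and Car9 at -0.11, and without prolactin replicate 2, Ldha was at 0.0038.

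The labels do not say what a shared replicate number means, and same-numbered libraries did not all deviate together (correlations across 11590 genes of 0.541, 0.324 and 0.0871), so the replicate block is an alternative only. For number 1 the correlations with other numbers were lower, from -0.49 to -0.468. For numbers 2 and 3 the best correlation with another number was higher than that with the same number (0.350 and 0.0918). With 3 libraries a condition, the spread between them limits which differences can be called.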

Other observations

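The order of the control libraries was also counted in the further gene lists. Control replicate 1 was the highest control library in 20 of 32 further hypoxia-induced genes (62.5%, against 27.6% of all tested genes), beside 7 of 31 further glycolysis genes (22.6%) and 4 of 15 further HIF pathway genes (26.7%). Ak4, an adenylate kinase gene induced by HIF, had 3.49, 2.12 and 2.07 CPM in prolactin and 8.21, 1.77 and 4.69 CPM in control (edgeR adjusted p = 0.389). Angptl4, a secreted lipase inhibitor gene, had 1.29, 1.04 and 1.10 CPM in prolactin and 1.48, 0.644 and 1.09 CPM in control. Both genes were chosen after their values were seen.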
